A study of Mus musculus with 10 samples.

Results

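The FOXP genes encode forkhead transcription factors, which read DNA through a forkhead domain and pair with each other, mostly as repressors, through a leucine zipper. The p63 binding sites at 3 of them, Foxp1, Foxp2 and Foxp4, were taken from a list of p63 peaks in mouse keratinocytes. The sites were chosen by position, as the listed peaks inside each gene or within 50 kb of either end, and the genes were selected on earlier counts from this list. The counts and densities of peaks are therefore a description, and no test was made on them. In all, 11 of the 8451 listed peaks met the rule: 10 at Foxp1, 0 at Foxp2 and 1 at Foxp4.

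FOXP1 is known in mouse skin for holding hair follicle stem cells at rest, and FOXP1 and FOXP4 act together in lung epithelium. FOXP2 is known for its roles in brain circuits of vocal learning and in lung. p63 is the p53-family factor that maintains basal cells of stratified epithelia, and it acts largely from sites far from promoters.

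The study made chromatin immunoprecipitation sequencing (ChIP-seq) libraries from MK1 and MK2, described as similar keratinocyte lines of the mouse, with no further genotype, age or treatment given for either. The p63 group holds 2 libraries, 1 per line, made with the antibody 4A4. The other 8 libraries (H3K4me1, H3K4me3, H3K27ac and input chromatin, each with 1 library per line) were not analysed here. The 2 p63 libraries were combined into 1 list by IDR, a procedure that keeps peaks ranked alike in both, so the lines cannot be compared and values carry no replicate error. The list holds positions without heights or reads, so its depth is unknown, a gene without a listed peak is not shown to be unbound, and the keratinocyte label could not be checked against expressed markers. Positions are 1-based on mm10, and intervals in brackets are 95% intervals for counting error only, which take peaks as independent of each other.

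The RefSeq table of gene starts (build GRCm38.p6, the assembly of mm10) gave strand and start sequences for Foxp1 and Foxp4. Foxp1 lies on the minus strand of chromosome 6 and had 3 annotated starts, named here upper, middle and lower by their position. They lay 1.75, 256 and 494 kb from the 5′ end of the gene. Foxp4, on the minus strand of chromosome 17, had 1. Each sequence runs 5′ to 3′ from 250 bases before the start to 50 after it, and is shown because distances of the peaks are measured from these points. Capitals mark CG dinucleotides, of which the lower Foxp1 start had 44 in 300 bases, the middle start 5, the upper start 13 and the Foxp4 start 33, against a median of 7 over all 32851 starts in the table.
Foxp1 upper start, chr6:99520944-99521243, minus strand: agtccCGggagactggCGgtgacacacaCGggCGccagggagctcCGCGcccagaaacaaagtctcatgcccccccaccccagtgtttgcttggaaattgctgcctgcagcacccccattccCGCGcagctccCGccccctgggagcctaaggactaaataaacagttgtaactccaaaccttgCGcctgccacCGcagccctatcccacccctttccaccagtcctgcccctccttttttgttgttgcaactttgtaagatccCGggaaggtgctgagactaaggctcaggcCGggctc
Foxp1 middle start, chr6:99266466-99266765, minus strand: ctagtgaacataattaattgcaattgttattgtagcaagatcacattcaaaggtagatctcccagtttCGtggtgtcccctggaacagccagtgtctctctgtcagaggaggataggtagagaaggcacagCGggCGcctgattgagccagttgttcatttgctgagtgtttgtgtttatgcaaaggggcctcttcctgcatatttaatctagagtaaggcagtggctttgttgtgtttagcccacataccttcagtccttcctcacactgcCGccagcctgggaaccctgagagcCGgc
Foxp1 lower start, chr6:99028249-99028548, minus strand: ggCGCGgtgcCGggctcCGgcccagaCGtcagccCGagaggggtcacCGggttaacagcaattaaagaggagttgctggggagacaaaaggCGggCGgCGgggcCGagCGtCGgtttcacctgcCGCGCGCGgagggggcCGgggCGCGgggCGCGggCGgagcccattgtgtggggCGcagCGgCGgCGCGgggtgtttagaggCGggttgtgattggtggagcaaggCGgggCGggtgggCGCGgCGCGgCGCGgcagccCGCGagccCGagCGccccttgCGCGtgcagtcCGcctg
Foxp4 start, chr17:47924583-47924882, minus strand: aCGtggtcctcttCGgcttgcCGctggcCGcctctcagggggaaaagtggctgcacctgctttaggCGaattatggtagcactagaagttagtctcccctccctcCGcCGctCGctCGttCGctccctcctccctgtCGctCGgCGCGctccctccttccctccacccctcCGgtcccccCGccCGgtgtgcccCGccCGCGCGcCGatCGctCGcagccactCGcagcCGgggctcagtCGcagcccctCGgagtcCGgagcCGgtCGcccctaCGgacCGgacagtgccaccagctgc

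None of these 4 windows held a p63 peak, and the nearest midpoint was 128 kb from the upper, 13.0 kb from the middle and 4.88 kb from the lower Foxp1 start. At Foxp4 it was 36.4 kb away. The letters CATG, the core of a p63 half-site and the same on both strands, occurred once, in the upper Foxp1 sequence, and were present in 61.1% of all starts. CATG repeated after 6 bases, as in a full site, was in none of the 4 and in 0.712% of all starts. The forkhead motif TGTTTAC, searched on both strands, was in none of the 4 and in 3.65% of all starts. The bases under the peaks themselves were not analysed here.

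Foxp1 carried peaks along the middle of its body and none in its flanks. The gene spans chr6:98925342-99522746, a body of 597 kb, and all 10 peaks had their midpoint inside it, as did 53.3% of the whole list (4506 of 8451) for the bodies of protein-coding genes. The first midpoint lay 130.1 kb from the 5′ end and the last at 489.6 kb, so the span from first to last midpoint was 60.2% of the body. The peaks themselves summed to 3345 bp. Cut into 5 equal parts of 119 kb from the 5′ end, the gene held 0, 4, 4, 1 and 1 peaks. The outermost 130 kb at the 5′ end and 108 kb at the 3′ end held no peak. Exons were not used here, so a peak inside the gene is placed neither in an exon nor in an intron.

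**Figure D1:**
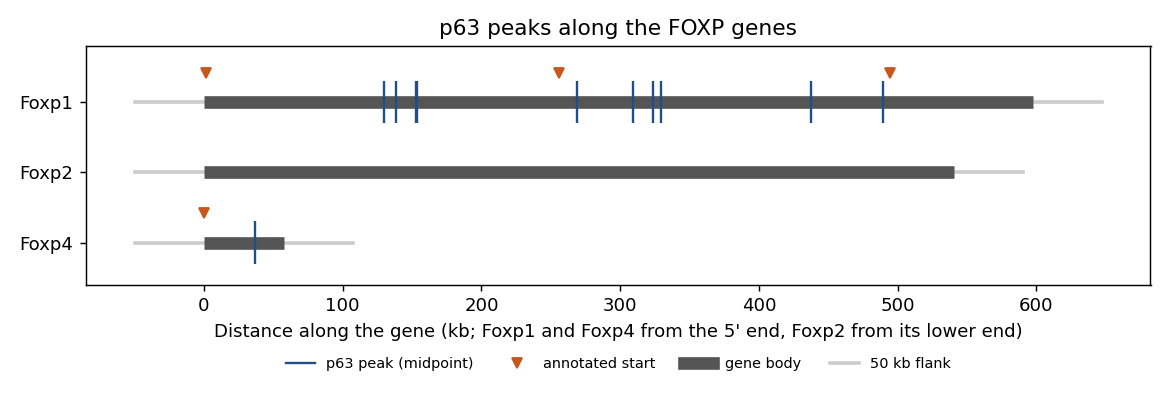
Position of p63 peak midpoints (vertical lines) along Foxp1, Foxp2 and Foxp4, in kb along the gene, with gene bodies as thick bars, 50 kb flanks as thin lines and annotated starts as triangles. All 10 Foxp1 peaks lie between 130.1 and 489.6 kb from the 5′ end, Foxp2 has 0 and the Foxp4 peak lies at 36.4 kb.

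The peaks nearest the 5′ end formed a compact group. Peak 1, at chr6:99392352-99392999, was 648 bp wide. Peak 2, at chr6:99384258-99384487, was 230 bp wide and lay 8.30 kb further into the gene. These were followed by peak 3 at chr6:99369987-99370331 and peak 4 at chr6:99369145-99369460, with 0.526 kb between their edges. The 4 midpoints spanned 23.4 kb and lay between the upper and the middle start, the nearest of them 103 kb upstream of the middle start.

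A looser group of 4 lay downstream of the middle start. Peak 5, at chr6:99253402-99253670, lay 13.0 kb downstream of it. Peak 6, at chr6:99213232-99213437, lay inside Gm52870, a long noncoding RNA gene within Foxp1, and was the only Foxp1 peak that overlapped an annotated noncoding gene, of 5 in the window. Peak 7, at chr6:99199274-99199614, and peak 8, at chr6:99193073-99193446, were 6.19 kb apart. Together peaks 5 to 8 spanned 60.3 kb.

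The last peaks stood apart, towards the lower start. Peak 9, at chr6:99085070-99085278, lay 56.9 kb upstream of that start. Peak 10, at chr6:99032971-99033377, lay 4.88 kb upstream of it and was the peak closest to any of the Foxp1 starts. It was the only one of 10 within 5 kb of a Foxp1 start, or within 10 kb. Distances from these peaks to starts of other genes, such as the noncoding genes within Foxp1, were not set out for Foxp1 alone. They enter only the whole-list values that follow. Of 8166 listed peaks on the chromosomes covered by the table of starts, 22.1% lay within 5 kb of a start of any gene and 34.3% within 10 kb. The median distance from the 10 Foxp1 peaks to the nearest Foxp1 start was 70.2 kb. From those 8166 peaks to the nearest start of any gene it was 18.6 kb. These measures differ, so the Foxp1 peaks are not shown to lie further from starts than the whole list.

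The stretch between the middle and lower starts held most of the peaks. It is 238 kb long and had 6, or 2.52 per 100 kb (0.924 to 5.48). The 254 kb between the upper and middle starts had 4, or 1.57 per 100 kb (0.428 to 4.02). The intervals overlap widely. Downstream of the lower start, the last 103 kb of the gene had 0 listed peaks.

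Foxp1 peaks came at short steps with a pair of long gaps. The 9 spacings between neighbouring midpoints ran from 0.857 to 115.8 kb with a median of 14.2 kb, against a median of 75.5 kb (quartiles 19.7 and 251 kb) over 8430 neighbouring pairs of the whole list. From the 5′ end they were 8.30, 14.2, 0.857, 116, 40.2, 13.9, 6.19, 108 and 52.0 kb. The gaps of 116 and 108 kb divide the peaks into runs of 4, 4 and 2. Another peak lay within 10 kb of 6 of the 10 Foxp1 peaks (60.0%), and of 2459 of 8451 in the whole list (29.1%). The 6 were peaks 1 and 2, 3 and 4, and 7 and 8. Each closeness counts for both peaks of a pair, so no interval is given for these shares. The spacing follows from how many peaks lie in the gene, which the choice of the gene used, so it is given without a test.

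**Figure D2:**
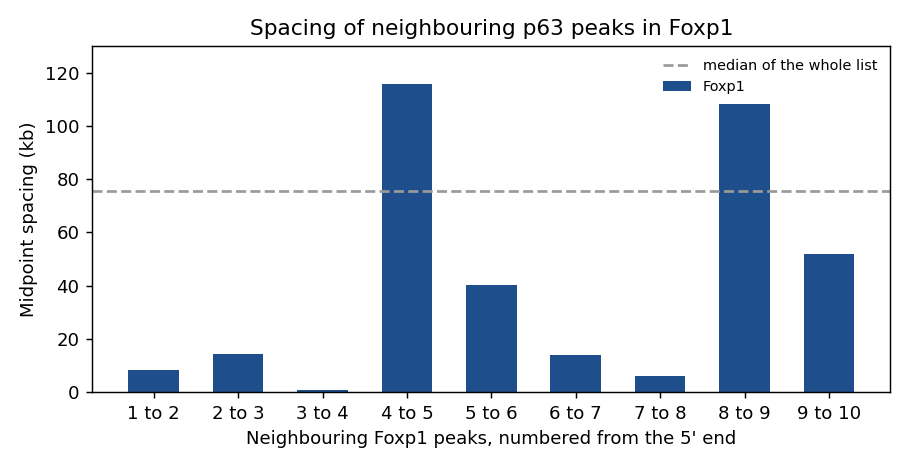
Midpoint spacing in kb between each pair of neighbouring Foxp1 peaks, numbered from the 5′ end, with the median of the whole list as a dashed line at 75.5 kb. The gaps between peaks 4 and 5 and between peaks 8 and 9 exceed that median, and the other 7 lie below it.

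Width, which the rule did not use, covered the usual range. The Foxp1 peaks were 648, 230, 345, 316, 269, 206, 341, 374, 209 and 407 bp wide from the 5′ end, with a median of 328.5 bp (quartiles 240 and 367 bp). The whole list had a median of 305 bp (quartiles 242 and 392 bp). Peak 1 was wider than 96.8% of the list, and 6 of the 10 were at least as wide as its median. The narrow end was also represented, since peaks 6 and 9 were wider than 9.43% and 10.5% of the list. The widest peak and a peak of 230 bp were neighbours in the 5′ group.

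**Figure D3:**
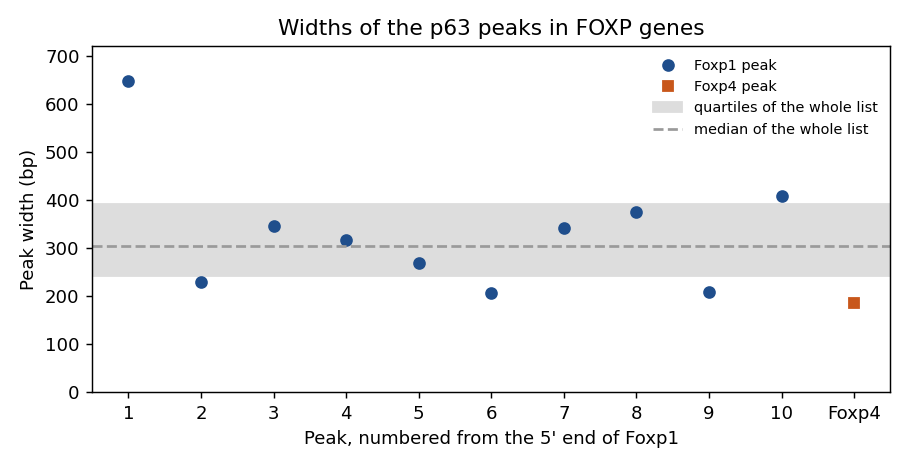
Width in bp of the 10 Foxp1 peaks, numbered from the 5′ end, and of the Foxp4 peak, with the median (dashed line) and quartiles (grey band) of all 8451 peaks. Peak 1, at 648 bp, stands above the others, and the Foxp4 peak, at 185 bp, is narrower than every Foxp1 peak.

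Foxp2 had no listed peak. It lies on the same chromosome as Foxp1 at chr6:14901349-15441977, with a body of 541 kb, and its window of 641 kb held 0 peaks. The nearest peaks stood 259 kb below the gene, at chr6:14642367-14642541, and 1668 kb above it, at chr6:17109376-17109721. Foxp2 thus lay in a stretch of 2467 kb between listed peaks. A count of 0 was common for genes of this size: of 227 protein-coding genes with a body of at least 500 kb, 120 had 0 in the same window (52.9%, Wilson interval 46.4 to 59.3).

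Foxp4 had a single, narrow peak. The gene spans chr17:47867133-47924632, a body of 57.5 kb, and the peak at chr17:47888116-47888300 lay 36.4 kb downstream of the start, at 63.3% of the body. Its width of 185 bp exceeded that of 3.33% of the whole list. The closest other peak of the list was 98.3 kb away. The sole protein-coding neighbour in the window, Mdfi, which encodes an inhibitor of myogenic factors, had 0 peaks in its body.

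The 50 kb limit fell in empty DNA around the FOXP genes, since no peak lay in any of the flanks. The closest peaks outside were those around Foxp4, at 61.9 kb above the gene inside the noncoding gene Gm41591 and at 85.8 kb below it inside Tfeb, a regulator of lysosome genes. Above Foxp1 the next peak was 141 kb from the gene, inside Eif4e3, which encodes a cap-binding protein. Below Foxp1 the next was 1309 kb away, inside Frmd4b. Foxp3, the remaining paralog, which specifies regulatory T cells, had 0 peaks in its window on the X chromosome, with the closest 79.4 kb above it.

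Per kb, Foxp1 was ahead of Foxp4 with flanks included and level with it in the body alone. The flanks held no peak, so including them lowers the density of the shorter Foxp4 more than that of Foxp1. In the gene with its flanks, the density was 0.0143 peaks per kb for Foxp1, 0 for Foxp2 and 0.00635 for Foxp4. Per 100 kb this is 1.43 (0.688 to 2.64) for Foxp1 and 0.635 (0.0161 to 3.54) for Foxp4, a ratio of 2.26 (exact interval 0.321 to 98.0). In the body alone it was 1.67 per 100 kb (0.803 to 3.08) for Foxp1 and 1.74 per 100 kb (0.0440 to 9.69) for Foxp4, a ratio of 0.963 (exact interval 0.137 to 41.8). With 1 peak at Foxp4, the order of these paralogs by density could not be told, and no fold is given against Foxp2, which is listed at 0.

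A peak near a gene was common in the genome, and 10 peaks near a gene were rare. Of the 3 FOXP genes, 2 had a peak in the body or within 50 kb, as had 40.7% of 21779 protein-coding genes. At least 10 peaks were found at 0.0459% of protein-coding genes, that is at 10 genes, Foxp1 among them. By density, 15.2% of protein-coding genes equalled or exceeded Foxp1 and 35.5% equalled or exceeded Foxp4. Foxp1 was also set among long genes. Of the 227 protein-coding genes of at least 500 kb, it had the highest density, 1.43 peaks per 100 kb, with the next at 1.23 and a median of 0. That place depends on the limit of 500 kb, which was set after seeing the data: Ank3, with a body of 494 kb, had 9 peaks in its window and 1.52 per 100 kb, and of 352 genes of at least 400 kb, 3 others, Ank3 included, were at least as dense as Foxp1. These values are those for which Foxp1 was chosen. The Foxp1 body held 2.38% of the 421 peaks of chromosome 6 in 0.408% of its annotated span.

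**Figure D4:**
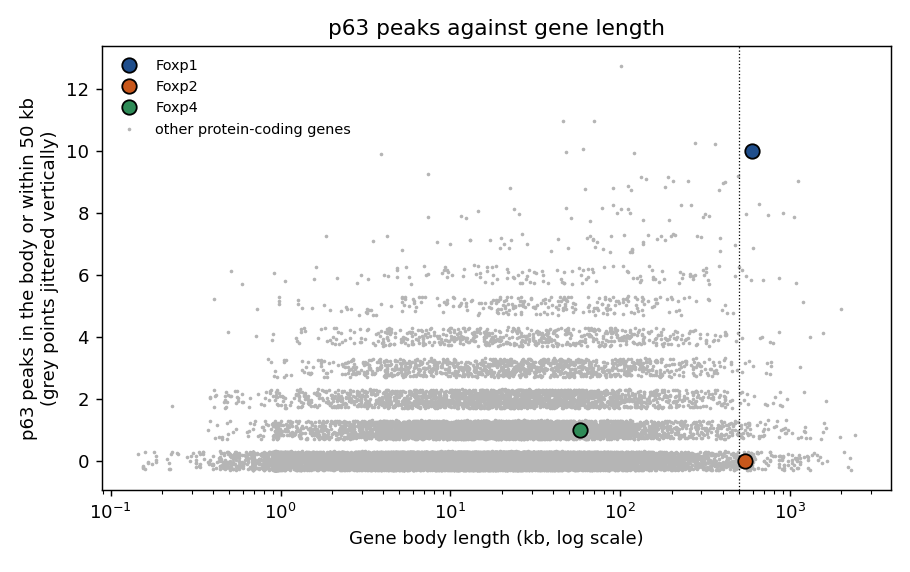
Number of p63 peaks in the body or within 50 kb against gene body length (kb, log scale) for Foxp1, Foxp2, Foxp4 and all other protein-coding genes (grey, jittered vertically). Foxp1, with 10 peaks, has the most peaks of the genes right of the dotted line at 500 kb, while Foxp2, of similar length, is at 0.

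The genes most like Foxp1 were sought among 137 other protein-coding genes of similar length, with bodies of 478 to 747 kb. Of these, 86 (62.8%) had 0 peaks in the body, and none reached 10. By density with flanks, 1 of the 137, Ank3 at 1.52 per 100 kb, exceeded the 1.43 of Foxp1. The nearest in number were Nav2 and Tenm4, which encode proteins of neurite growth, and Ank3, which encodes the membrane adaptor ankyrin-G, with 8 each in the body. Next came Lpp, which encodes a protein of focal adhesions, and Slit3, which encodes a guidance ligand, with 6 each, the closest in length of 6 genes tied at that number. Of Foxp1 and these 5 genes, Foxp1 had the shortest median spacing, 14.2 kb. It was 16.5 kb in Nav2, 33.4 kb in Ank3, 67.4 kb in Tenm4, 76.4 kb in Slit3 and 80.3 kb in Lpp. All 5 had fewer peaks in the body than Foxp1. More peaks in a body of similar length tend to lie closer, so this order is not separate from the count. The median widths of these genes' peaks ran from 275.5 to 351 bp, on both sides of the 328.5 bp of Foxp1.

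Genes tied to the FOXP proteins by family or partnership were looked at as 3 lists, drawn up with earlier results of these data known. Of 40 other forkhead genes, 23 (57.5%) had a peak in the body or within 50 kb, with a median of 1 and at most 4, against 40.7% and a median of 0 over all protein-coding genes. Their median body was 4.28 kb, against 17.2 kb over all protein-coding genes, so their windows were typically smaller. Windows of neighbouring genes can overlap, and a peak in such an overlap counts for each gene. How far this raises the 57.5% or the 40.7% was not examined. Foxn3 had 4 peaks, all in its 374 kb body. Foxm1, a driver of cell division genes, and Foxs1 also had 4 each, all outside their bodies. Foxn1, the gene mutated in nude mice and a factor of hair and thymus epithelium, had 3, of which 2 were in the body.

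Genes of FOXP protein partners had a peak in 13 of 14 cases (92.9%), with a median of 2, against 40.7% and a median of 0 over all protein-coding genes. Their median body of 54.6 kb was longer than the 17.2 kb of all protein-coding genes, so their windows were also larger. Runx1, which encodes a transcription factor of blood and hair follicle stem cells, had 6, all in its body. Ctbp2, which encodes a transcriptional corepressor, had 4, of which 3 were in the body. Nfatc2, a partner of FOXP3 in T cells, had 4, and Tbr1, which encodes a cortical partner of FOXP2, had 0.

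Genes reported elsewhere as FOXP targets had a peak in 6 of 10 cases (60.0%), with a median of 1, against 40.7% and a median of 0 over all protein-coding genes, and their median body was 27.2 kb, against 17.2 kb. Scgb1a1, the club cell secretoglobin gene of the lung, had 3, all outside its body. Pdpn, which encodes podoplanin, had 2, both in its body. Foxo1 and Mef2c had 1 each. Fgf18, which encodes the growth factor linked to FOXP1 in hair follicle stem cells of the mouse, and Cntnap2, linked to FOXP2, had 0, Cntnap2 over a body of 2241 kb.

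**Figure D5:**
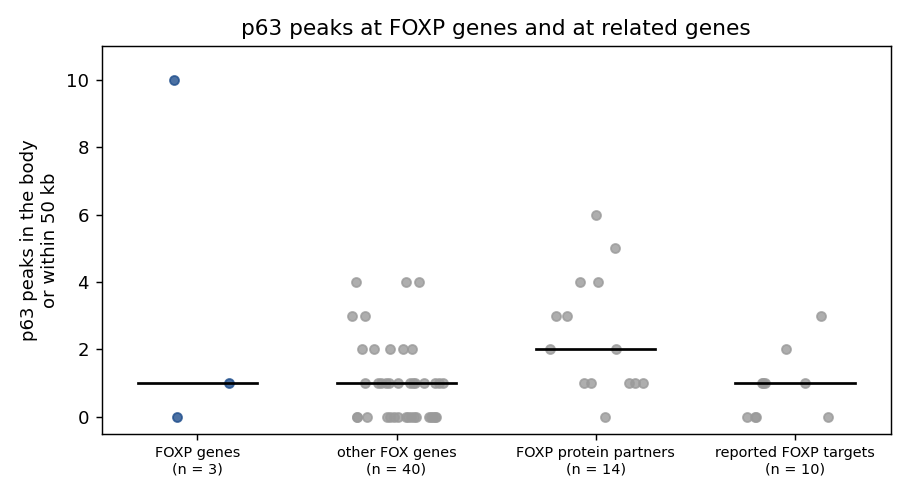
Number of p63 peaks in the body or within 50 kb for each gene of the FOXP genes and of 3 related lists, with horizontal lines at the medians of 1, 1, 2 and 1. Foxp1, at 10, lies above every gene of the other lists, the highest of which, Runx1, is at 6.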

How the data were processed

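ChIP-seq of p63 was done in the mouse keratinocyte lines MK1 and MK2, with 50 bp single-end reads per the labels' protocols. Bowtie 1.1.1, SAMtools 1.1 and the build mm10 are named in the submitters' processing notes. The list deposited by the authors holds chromosome, start and end of each peak and, per the labels, comes from IDR on both p63 libraries. The caller of the peaks and its thresholds were not stated in the labels, and no counts, scores or depth are held.

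Here, starts were made 1-based, a peak was assigned by its midpoint, and genes came from a RefSeq table of GRCm38.p6. Of 49943 gene rows, 340 that ended within the opening 3 Mb of a chromosome (Y excepted) were taken as unplaced and left out, leaving 21779 protein-coding genes. Densities are peaks divided by body length or by body plus both flanks, with exact Poisson intervals. Ratios have exact conditional binomial intervals, and shares printed with an interval have Wilson intervals. The table of gene starts covered all chromosomes with peaks but 1. Counting was checked on peaks placed at known positions and returned the right number for 200 of 200 genes. Python 3.11.15, pandas 2.3.3, scipy 1.17.1 and matplotlib 3.10.9 were used.

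The FOXP genes and all lists were chosen with earlier results of these data known. Genes named are the FOXP genes, protein-coding genes in their windows, genes that hold the nearest peaks outside, up to 4 genes per list with most peaks (ties alphabetical) and the 5 most like Foxp1, nearest in body peaks among genes of similar length (ties to the nearest length). A gene that the rule names is not reported here. The nearest outside peaks, Fgf18, Cntnap2, Tbr1 and the genes of the closing section were named after their values were seen. The planned search for p63 motifs in the peaks was not run, since no genome sequence was used. No test was made, because the choice of genes used the counts and a list made from both libraries has no replicates.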

Additional observations from a re-analysis of the deposited data

How the results depend on the processing

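The count at Foxp1 was 10 with flanks of 0, 10, 25 and 100 kb, by overlap or by the whole peak, and when only peaks nearest to the gene counted. Joining peaks within 1 kb or 10 kb left 9 or 7 sites. Keeping peaks at least as wide as the median left 6 at Foxp1 and 0 at Foxp4, where the density then was 0. With flanks of 100 kb, Foxp4 had 3 peaks. Foxp2 had 0 under each of these settings. The ratio of peaks per kb of Foxp1 over Foxp4 was 2.26 with 50 kb flanks and 0.963, 1.26, 1.66 and 1.08 with flanks of 0, 10, 25 and 100 kb. Its direction thus turned in the body alone. From 0 to 50 kb the counts of both genes stayed the same, so there the ratio changed with window length alone. The flanks of 0, 10, 25 and 100 kb for the ratio, and the comparisons at 400 and 500 kb, were chosen after seeing the data. The share of protein-coding genes at least as dense as Foxp1 was 15.2% of all, 7.54% of those of at least 100 kb, 1.14% of those of at least 400 kb and 0.441% of those of at least 500 kb, where Foxp1 alone makes up the share. The median spacing was 13.9 kb edge to edge, against 14.2 kb between midpoints. The median width did not move with the flanks, which hold no peak.

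No paired analysis was possible because the list was made from both p63 libraries together and holds no value per library; leaving out a library was not possible for the same reason. Read depth is unknown, so a count of 0 at Foxp2 does not tell absent binding from low coverage. Peaks that passed in 1 line alone are not meant to be in such a list. With single-end reads, peak edges can depend on an inferred fragment length, and how they were set here was not stated. This can limit how finely widths and short spacings can be read.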

Other observations

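Of the 10 protein-coding genes with at least 10 peaks in the body or within 50 kb, Foxp1 was the only one whose peaks all lay in the body. Btbd11 and Tiam1, the other long genes among them, had 8 of 10 in bodies of 275 and 358 kb, while Sfr1 had 0 of 10 and Cfap43 had 2 of 13. A peak in overlapping windows counts for each gene, so the 10 genes need not be separate regions. Foxp1 was the longest of the 10, so flanks made up the smallest part of its window. Among the genes most like Foxp1, all peaks also lay in the body in Nav2 and Tenm4 (8 of 8 each) and in Slit3 (6 of 6). In Ank3 it was 8 of 9 and in Lpp 6 of 7. Among protein-coding genes of at least 500 kb, the densest after Foxp1 was Pard3, which encodes a polarity protein, with 8 peaks and 1.23 per 100 kb, followed by Nav2 with 8 and 1.07 per 100 kb. Just under that length, Ank3, with 494 kb, was denser than all of these, at 1.52 per 100 kb.

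The stretches without a listed peak on either side of the Foxp1 peaks differed in length. Below peak 10 the list was empty for 1416 kb, and above peak 1 it was empty for 270.2 kb. The upper quartile of spacing between neighbouring midpoints of the whole list was 251 kb, so the stretch above peak 1 was not rare for this list. The longest such spacing was 14724 kb. How many were as long as the stretch below peak 10 was not counted.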
